A study of Mus musculus with 18 samples.

Results

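The genes described here are 39 antiviral response genes known to be induced by type I interferon. They were taken as a fixed list of gene symbols and followed through every probe set annotated to one of them. The list was chosen with earlier results of these data known, so that its shares below are a description. A probe set of their own was present for 36 of the 39 genes, through 53 of the 22626 probe sets of the array, and the array measured 12393 genes in this way in all. *Isg15* was represented only by a probe set that also carries the symbol *Gm9706*, and it was left out with *Ifi44* and *Xaf1*, which were not analysed here. The genes were compared in 3 successive populations of thymocyte progenitors of C57BL/6 mice. These are the early thymic progenitors (ETP), which are CD44+ CD25- and c-Kit+, the DN2 cells, which are CD44+ CD25+, and the DN3 cells, which are CD44- CD25+. All were sorted after depletion of cells with lineage markers. The adult cells came from female mice aged 4 to 6 weeks and the fetal cells from thymi labelled E14.5, for which the methods of the study give a later day. Each of the 6 groups had 3 arrays, 18 in all, with RNA pooled over several sorts. No mouse carried a transgene or was treated. The labels call the 3 arrays of a group biological replicates and the methods call them technical replicates, and the spread behind the p-values may therefore be technical.

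Type I interferons act through a receptor of the chains IFNAR1 and IFNAR2, whose kinases activate transcription factors. IRF9 takes part in the complex that binds the interferon-stimulated response element in the promoters of the target genes. Among the targets are sensors of viral nucleic acids, enzymes that degrade or modify RNA and nucleotides, membrane proteins that hinder viral entry or release, and the transcription factors and the protease that amplify or limit the response itself. Many of these genes are also transcribed at a low level without infection, under tonic interferon signalling, which thymic epithelial cells are known to supply in the thymus.

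Because the regulation of these genes runs through a short promoter element, the promoters were searched for its core, GAAANNGAA, on both strands. In the RefSeq promoters of GRCm38.p6, windows from 250 bases before to 50 bases after each start, this core was found in 8.56% of 32851 promoters. It was found in 13 of the 34 promoters of these genes (38.2%), which belong to 27 of the 36 genes. A gamma-activated site, TTCNNNGAA, was found in 9 of the 34 (26.5%) and in 8.3% of all promoters. *Adar*, *Bst2*, *Eif2ak2* and *Ifitm3* held both motifs, whose matches may overlap, and a match is a description of the letters alone. The 160 bases before the start are given for *Rsad2* and *Ifit1*, which were lower in fetal cells, and for *Ifit3*, a neighbour of *Ifit2* with the core in its promoter and no called difference, and for *Ifitm2*, which was higher in fetal cells. They lie at chr12:26456453-26456612 (minus strand), chr19:34640729-34640888 (plus strand), chr19:34583369-34583528 (plus strand) and chr7:140955962-140956121 (minus strand). Each is written 5′ to 3′ on the strand of its gene, and capitals mark the core on either strand.
Rsad2: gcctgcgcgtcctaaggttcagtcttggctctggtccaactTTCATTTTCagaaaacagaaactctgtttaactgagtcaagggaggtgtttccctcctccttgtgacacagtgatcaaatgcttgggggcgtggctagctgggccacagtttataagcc
Ifit1: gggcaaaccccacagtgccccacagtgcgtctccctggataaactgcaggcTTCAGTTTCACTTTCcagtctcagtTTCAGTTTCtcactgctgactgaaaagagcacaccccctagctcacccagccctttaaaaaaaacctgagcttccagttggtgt
Ifit3: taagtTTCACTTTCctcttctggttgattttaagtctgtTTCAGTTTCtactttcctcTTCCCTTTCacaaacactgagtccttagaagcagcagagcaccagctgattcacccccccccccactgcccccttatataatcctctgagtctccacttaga
Ifitm2: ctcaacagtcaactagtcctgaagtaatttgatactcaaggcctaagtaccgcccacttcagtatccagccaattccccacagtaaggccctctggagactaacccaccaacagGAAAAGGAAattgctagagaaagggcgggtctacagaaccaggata
Both *Ifit* promoters held 3 copies of the core in this stretch, and the others held 1. Of the genes called lower in fetal cells at 1 or more stages, 2 of the 9 with a promoter sequence had the core in their window. Of those called higher 2 of 3 had it, *Ifitm2* and *Ifitm3*, and of those called at no stage 9 of 15. The 9 genes without a promoter sequence in the table, which include *Dhx58*, *Usp18*, *Oas2* and *Rtp4*, were not searched.

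The deposited values are log2 intensities from which the median of each probe set over the 18 arrays had been subtracted. A value of 0 is therefore the middle of the 18 arrays and not absence, and levels of different genes cannot be compared. Before the results, several arrays have to be named. *Il2ra*, which encodes CD25, lay between -5.98 and -2.85 log2 on the 6 ETP arrays and between -0.17 and 1.41 log2 on the others, as the sort requires. *Cd44* lay between -8.38 and -6.89 log2 on 5 of the 6 DN3 arrays and at -0.86 log2 on adult DN3 replicate 3, near the DN2 arrays. *Xist*, which is transcribed from the silenced X chromosome of females, gave 1.59, -11.28 and -11.34 log2 in adult DN3, so that replicates 2 and 3 went against the female label. The embryonic globin gene *Hbb-y* was at 2.35 to 5.97 log2 in fetal replicates 2 and 3 and between -0.07 and 0.04 log2 in fetal replicates 1. Results on adult DN3 are given below also with its replicate 1 alone. In these fits the lone array has no spread of its own and is assumed to vary like the other groups, so that a p or a call from them is weaker evidence than the size of the difference.

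At each stage more of the interferon response genes were called lower than higher in the fetus. A gene is called where the adjusted p of limma was under 0.05 and the difference at least 1.8-fold (0.85 log2). Of the 36 genes, 11 were called lower and 0 higher in fetal ETP, 9 lower and 3 higher in fetal DN2, and 4 lower and 1 higher in fetal DN3. By the moderated F test of limma 19 of the 36 genes differed among the 6 groups, against 19.7% of all genes. Over all genes the share called lower was 4.06% in ETP, 1.94% in DN2 and 1.33% in DN3, and the share called higher was 6.16%, 2.11% and 1.95%. The genes called lower thus made up 30.6%, 25.0% and 11.1% of the list at the 3 stages. With adult DN3 replicate 1 alone, and its spread taken from the other groups, 0 were called lower and 1 higher in fetal DN3, although the differences of *Rsad2* (-3.43 against -3.53 log2), *Dhx58* (-2.47 against -2.64), *Ifit2* (-1.37 against -1.76) and *Rtp4* (-1.30 against -1.20) kept their direction. Without fetal ETP replicate 2 the number lower in ETP was 7, and without adult ETP replicate 1 the number higher there was 1. In DN3 the number lower was 2 when any of adult replicates 2 and 3 and fetal replicate 1 was left out, and 1 when fetal replicate 2 was. In DN2 the number higher was 1 when adult replicate 3, fetal replicate 1 or fetal replicate 3 was left out, and 0 when fetal replicate 2 was. The list held fewer unvarying genes than the array. Only 3 of the 36 genes, *Mx2*, *Ube2l6* and *Stat2*, spanned less than 1 log2 over the 18 arrays, against 41.9% of all genes. Among the 7197 genes that spanned at least 1 log2, 6.99%, 3.35% and 2.29% were called lower. The median difference of the 36 genes was -0.68 log2 in ETP, -0.37 log2 in DN2 and -0.30 log2 in DN3, where the median of all genes was 0.07, 0.03 and 0.02 log2. In mixed RNA of many cells, fewer cells that express a gene and less of its RNA per cell cannot be told apart.

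**Figure D1:**
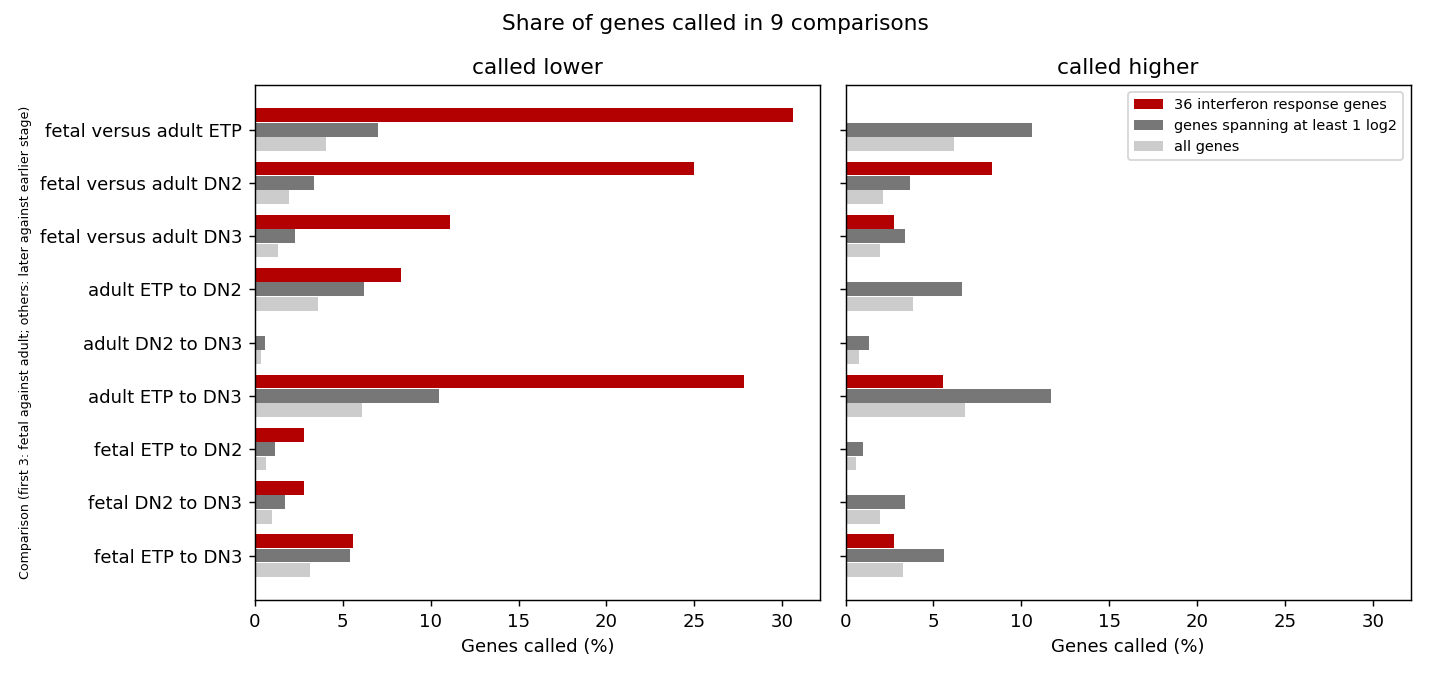
Share of genes called lower (left) and higher (right) in 9 comparisons, in percent, for the 36 interferon response genes, for all genes that spanned at least 1 log2 over the arrays and for all 12393 genes. In fetal against adult ETP and DN2 and from adult ETP to adult DN3 at least 25.0% of the interferon response genes were called lower.

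In 19 of the 36 genes all 3 fetal ETP arrays were lower than all 3 adult ETP arrays, which held for 9.47% of all genes. The groups did not overlap in this direction for 12 genes in DN2 (5.36% of all genes) and for 10 in DN3 (8.84%). The opposite held for 2, 3 and 4 genes at the 3 stages, against 51.0%, 9.05% and 9.77% of all genes. These shares were not limited to genes spanning at least 1 log2, and 41.9% of all genes spanned less, against 8.33% of the list. In ETP only 6.16% of all genes were called higher, so that the 51.0% includes many genes without a called difference. For 5 genes, *Dhx58*, *Ifit2*, *Parp14*, *Rsad2* and *Tap1*, all 9 fetal arrays were lower than all 9 adult arrays whatever the stage, against 0.629% of all genes. No gene of the list showed the opposite, which 1.09% of all genes did. The highest of the 18 arrays was an adult ETP array for 25 of the 36 genes (69.4%, against 18.1% of all genes). The lowest was a fetal DN2 array for 11 (30.6% against 6.73%) and a fetal DN3 array for 9 (25.0% against 9.17%). Among genes spanning at least 1 log2 these shares were 72.7% against 26.1%, 33.3% against 10.7% and 27.3% against 9.75%. The median over the 36 genes was 1.09, 0.43 and 0.65 log2 on the 3 adult ETP arrays and between -0.32 and 0.44 log2 on the other 15 arrays.

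**Figure D2:**
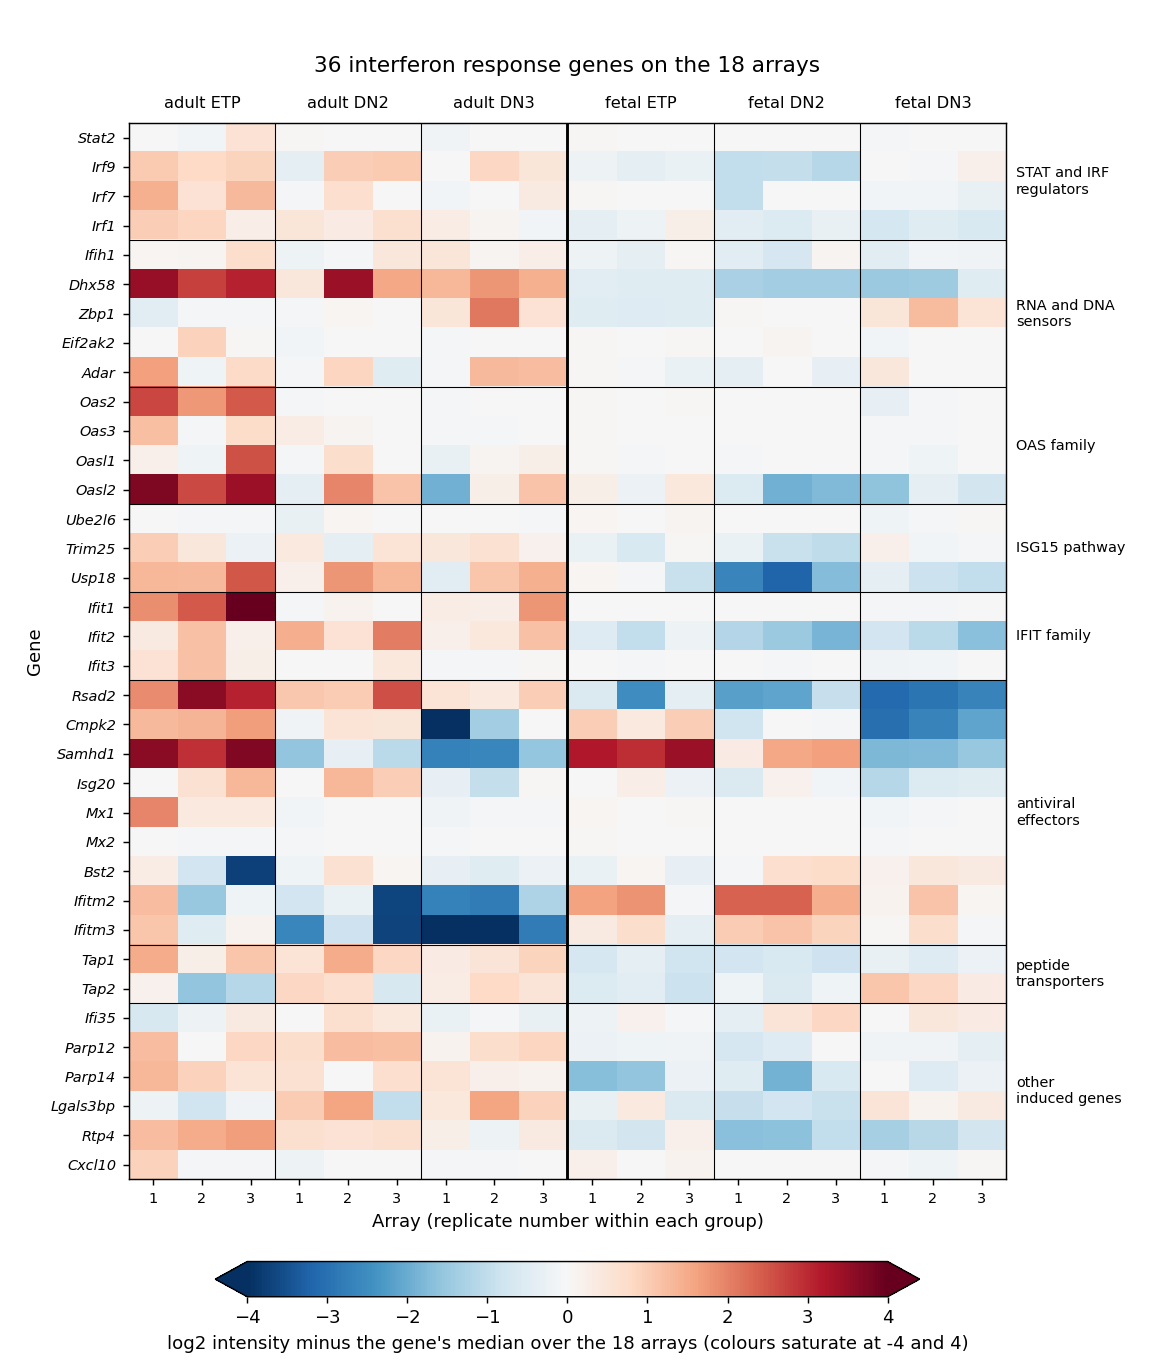
Values of the 36 genes (rows, ordered by role) on the 18 arrays (columns, 3 replicates per group) as log2 intensity minus the median of the gene over the arrays, red above and blue below it, with the colours saturated at -4 and 4. The adult ETP arrays are red for most varying genes, the fetal DN2 and DN3 arrays are blue for *Dhx58*, *Ifit2*, *Rsad2* and *Rtp4*, and *Ifitm2* and *Ifitm3* run the other way.

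Of the 4 regulators, *Irf9*, a DNA-binding part of the complex named above, and *Irf7*, which amplifies interferon production, were lower in fetal ETP. *Irf9* stood at 1.05, 0.81 and 0.89 log2 in adult ETP and at -0.21, -0.37 and -0.27 log2 in fetal ETP. In DN2 it stood at -0.40, 1.00 and 1.04 log2 in the adult and at -0.98, -0.95 and -1.15 log2 in the fetus. The fetal arrays were below every adult array at both stages, and replicate 1 of adult DN2 lay nearer to the fetal arrays than the other two. The difference was -1.20 ± 0.31 log2 in ETP and -1.57 ± 0.31 log2 in DN2 (SE, limma adjusted p = 0.0227 and 0.0103, n = 3 arrays per group). *Irf7* differed by -1.09 ± 0.28 log2 in ETP (limma adjusted p = 0.0242). *Irf1*, which binds related elements and is also induced by interferon gamma, was lower in fetal DN2, by a difference of -0.92 ± 0.19 log2 (limma adjusted p = 0.0136) and missed the fold limit in ETP with -0.82 log2. *Stat2* differed by -0.14, -0.01 and 0.05 log2 at the 3 stages and was not called. Both ETP calls were lost without adult ETP replicate 1 (-1.14 log2 for *Irf9* and -0.93 for *Irf7*), without adult ETP replicate 3 (-1.22 and -0.99) and without each fetal ETP array (-1.24 to -1.16 and -1.10 to -1.08). The call of *Irf1* was lost without adult DN2 replicate 3 (-0.85) or fetal DN2 replicate 2 (-0.86).

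Among the 5 sensors of foreign or unusual nucleic acids, *Dhx58* was the one called at any stage between fetal and adult cells. It encodes LGP2, a helicase that modulates the RNA sensors RIG-I and MDA5. *Dhx58* stood at 3.50, 2.72 and 3.09 log2 in adult ETP, at 0.46, 3.44 and 1.53 log2 in adult DN2 and at 1.33, 1.75 and 1.43 log2 in adult DN3. In the fetus it stood at -0.46, -0.49 and -0.48 log2 in ETP, at -1.28, -1.39 and -1.40 log2 in DN2 and at -1.49, -1.42 and -0.49 log2 in DN3. Adult and fetal arrays did not overlap, and the adult DN2 arrays were the most spread. The differences were -3.58, -3.17 and -2.64 log2 (SE 0.54 each, limma adjusted p = 0.000853, 0.00394 and 0.014). The DN3 call was lost without adult DN3 replicate 2 (-2.52), fetal DN3 replicate 1 (-2.46) or fetal DN3 replicate 2 (-2.50), and with adult DN3 replicate 1 alone it was -2.47 log2 (adjusted p = 0.141). The other probe sets of this gene spanned 0.11 and 0.17 log2 over all arrays. *Ifih1*, the RNA sensor MDA5, differed by -0.48, -0.40 and -0.50 log2 at the 3 stages. *Adar*, which edits double-stranded RNA, differed by -0.83, -0.34 and -0.67 log2, *Eif2ak2*, the kinase PKR, by -0.30, 0.07 and 0.00 log2 and *Zbp1*, a sensor of Z-form nucleic acids, by -0.32, 0.02 and -0.29 log2, none of them called. A second probe set of *Eif2ak2* had the opposite sign in ETP, with 0.35 log2, under the fold limit (limma adjusted p = 0.0217).

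The oligoadenylate synthetases make the second messenger that activates RNase L, and *Oasl1* and *Oasl2* encode related proteins. *Oas2* stood at 2.66, 1.74 and 2.44 log2 in adult ETP, and on the other 15 arrays it lay between -0.33 and 0.04 log2. The elevation was thus present on the 3 adult ETP arrays and on no other. Fetal ETP were lower than adult ETP, with a difference of -2.25 ± 0.17 log2 (limma adjusted p = 1.83e-06), while the difference was 0.01 log2 in DN2 and -0.10 log2 in DN3. The SD was 0.02 log2 in fetal ETP, 0.04 log2 in adult DN2 and 0.0011 log2 in fetal DN2, which is as flat as a probe set near background. The difference in ETP may then be a lower bound and those in DN2 and DN3 uninformative. In adult ETP the SD was 0.48 log2. The SE and p of limma pool the 6 groups, so that they rest largely on the flat ones and understate the spread of adult ETP. *Oasl2* stood at 3.73, 2.65 and 3.41 log2 in adult ETP and at 0.23, -0.23 and 0.41 log2 in fetal ETP, a difference of -3.13 ± 0.73 log2 (limma adjusted p = 0.0148). Without fetal ETP replicate 2 it was -2.94 log2 and not called, and in DN2 it was -2.32 ± 0.73 log2 (limma adjusted p = 0.111). *Oas3* was up on 2 of the 3 adult ETP arrays, at 1.21, -0.04 and 0.73 log2, and *Oasl1* on replicate 3 alone, at 0.21, -0.16 and 2.54 log2. Neither was called at any stage. *Oas2* and *Oas3*, and *Oasl2* and *Oasl1*, are neighbouring genes on chromosome 5.

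In the ISG15 pathway, *Usp18*, the protease that removes ISG15 from proteins and restrains signalling at the receptor, was lower in fetal ETP and DN2. Its values were 1.33, 1.29 and 2.48 log2 in adult ETP, then 0.21, 1.76 and 1.34 log2 in adult DN2 and -0.43, 1.11 and 1.44 log2 in adult DN3. The fetal values were 0.07, -0.07 and -0.89 log2 in ETP, -2.64, -3.21 and -1.73 log2 in DN2 and -0.37, -0.85 and -0.98 log2 in DN3. The fetal DN2 arrays were the lowest of all, and in DN3 the lowest adult array lay among the fetal ones. The differences were -2.00 ± 0.56 log2 in ETP, -3.63 ± 0.56 log2 in DN2 and -1.44 ± 0.56 log2 in DN3 (limma adjusted p = 0.0357, 0.00193 and 0.311). The ETP call was lost without adult ETP replicate 2 (-2.20), adult ETP replicate 3 (-1.61) or any one fetal ETP array (-2.18 to -1.70). *Ube2l6*, the conjugating enzyme for ISG15, spanned under 0.5 log2, and *Trim25*, a ligase for ISG15 and ubiquitin, differed by -0.68, -0.91 and -0.40 log2 without a call. A second probe set of *Trim25* was called lower in fetal DN2, with -1.31 log2 (limma adjusted p = 0.0281). The remaining probe set of *Trim25*, which spanned 1.94 log2, differed by 0.65, -0.05 and -0.06 log2 at the 3 stages and was not called.

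The IFIT proteins bind viral RNA and hinder its translation. *Ifit1*, which recognises RNA caps that lack methylation, stood at 1.85, 2.45 and 5.12 log2 in adult ETP and at 0.03, -0.01 and 0.00 log2 in fetal ETP. All adult ETP arrays were above every other array, by a wide range among themselves, and adult DN3 replicate 3 followed with 1.75 log2. The difference in ETP was -3.14 ± 0.62 log2 (limma adjusted p = 0.00558). The 3 arrays of fetal ETP, DN2 and DN3 had an SD of 0.02, 0.01 and 0.02 log2, a spread as small as GCRMA leaves near background, so that the difference may be a lower bound. In adult ETP the SD was 1.74 log2, which the SE pooled over the 6 groups understates. The call of *Ifit1* in ETP was lost with limma on the compared groups alone. This was not particular to *Ifit1*, as that setting kept 20 of the 51 called differences of single genes over all comparisons. *Ifit2* was called lower in fetal DN2 and DN3. It stood at 1.45, 0.57 and 2.04 log2 in adult and -1.16, -1.49 and -1.86 log2 in fetal DN2, and at 0.21, 0.41 and 1.17 log2 in adult and -0.76, -1.08 and -1.66 log2 in fetal DN3. The groups did not overlap, and the differences were -2.86 ± 0.40 and -1.76 ± 0.40 log2 (limma adjusted p = 0.00101 and 0.0294). The DN3 call was lost without adult DN3 replicate 2 (-1.86), adult DN3 replicate 3 (-1.48), fetal DN3 replicate 2 (-1.81) or fetal DN3 replicate 3 (-1.52), and with adult DN3 replicate 1 alone the difference was -1.37 log2 (adjusted p = 0.277). In ETP *Ifit2* differed by -1.14 log2, also without overlap of the arrays, and was not called (limma adjusted p = 0.0873). *Ifit3*, the neighbour of *Ifit2* on chromosome 19 and a partner of IFIT1 in RNA binding, differed by -0.68 log2 in ETP, under the fold limit (limma adjusted p = 0.0261).

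**Figure D3:**
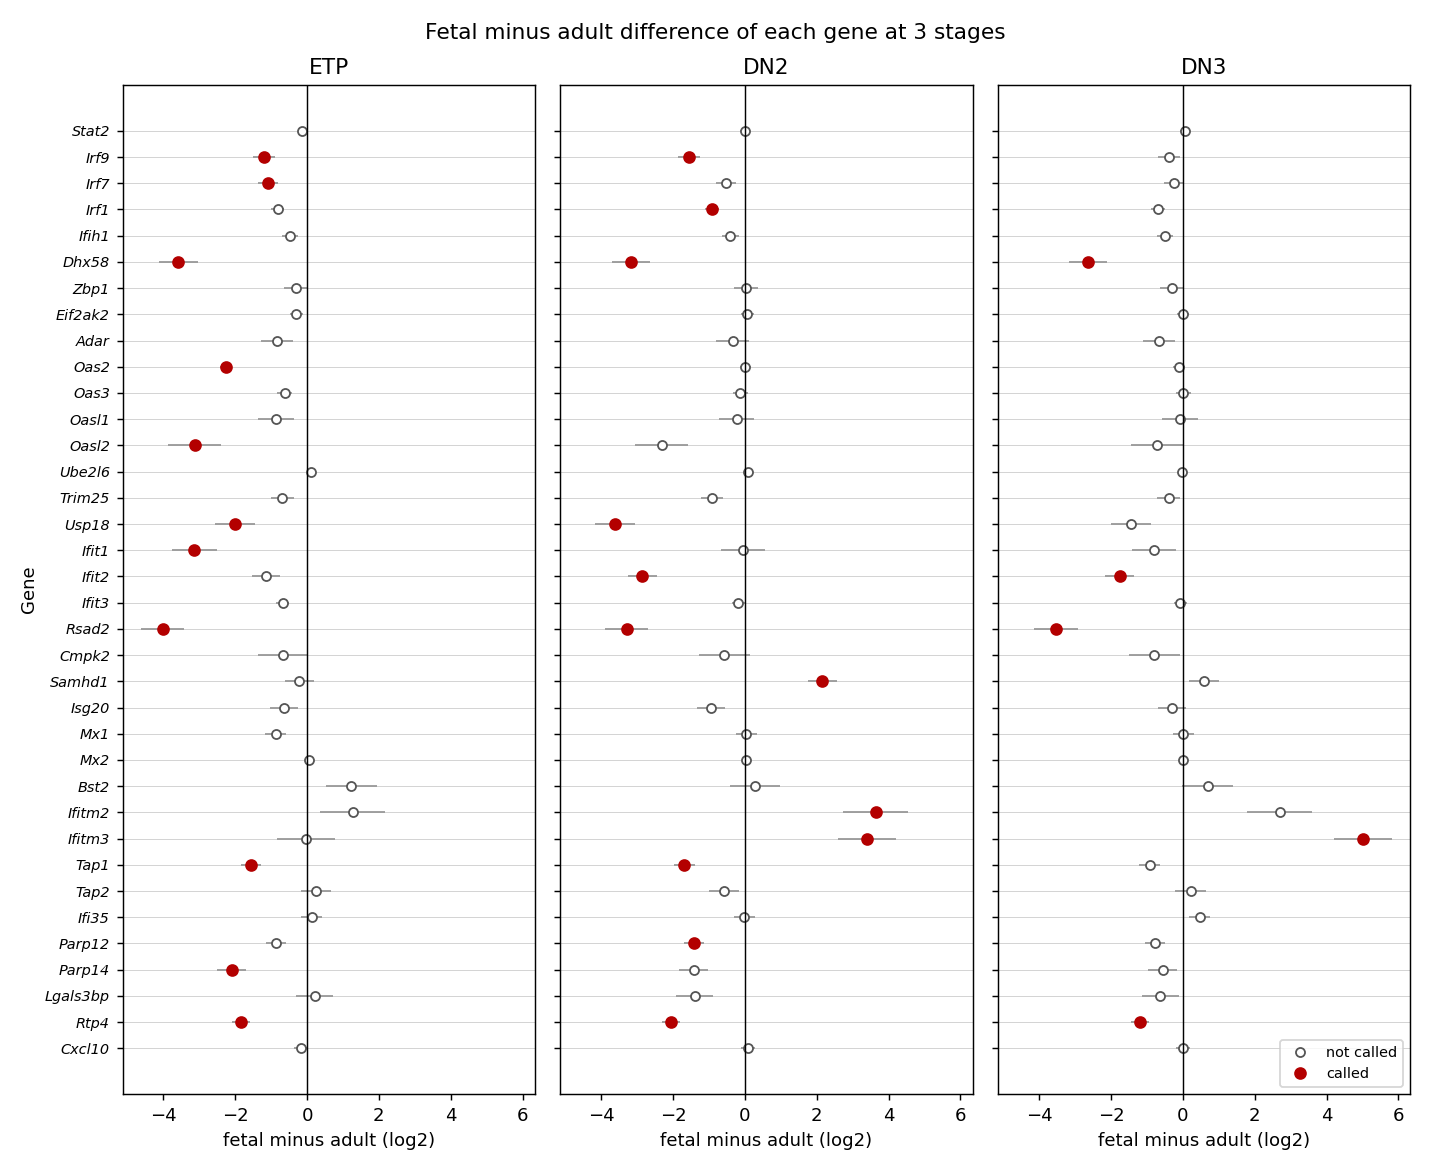
Fetal minus adult difference of each gene in log2 (horizontal axis) at ETP, DN2 and DN3, with the standard error of limma as bars, filled red where the difference was called. Most called genes lie left of 0, and *Samhd1*, *Ifitm2* and *Ifitm3* are the called genes to the right.

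The 9 antiviral effectors were divided. *Rsad2* encodes viperin, an enzyme that makes a chain-terminating nucleotide, and it was lower in fetal cells at all 3 stages. It stood at 1.90, 3.61 and 3.09 log2 in adult ETP, at 1.09, 1.02 and 2.57 log2 in adult DN2 and at 0.53, 0.38 and 0.98 log2 in adult DN3. In the fetus it stood at -0.58, -2.47 and -0.38 log2 in ETP, at -2.18, -2.12 and -0.91 log2 in DN2 and at -3.10, -2.91 and -2.68 log2 in DN3. No fetal array reached an adult one. The differences were -4.01, -3.30 and -3.53 log2 (SE 0.60 each, limma adjusted p = 0.000866, 0.00694 and 0.00389), and with adult DN3 replicate 1 alone the last was -3.43 log2 (adjusted p = 0.0565). A second probe set of *Rsad2* was called in ETP only among the 3 stages, with -3.03 log2 (limma adjusted p = 4.54e-05), and another spanned 0.11 log2 over all arrays. *Cmpk2*, the adjacent gene on chromosome 12, encodes the nucleotide kinase that supplies viperin with its substrate. *Cmpk2* differed between fetal and adult cells by -0.67, -0.58 and -0.79 log2 (SE 0.70 each) and was not called.

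The membrane proteins IFITM2 and IFITM3, which hold up the fusion of virus with the cell, ran the other way. *Ifitm3* stood at 1.12, -0.48 and 0.13 log2 in adult ETP, at -2.60, -0.83 and -3.70 log2 in adult DN2 and at -5.82, -5.74 and -2.78 log2 in adult DN3. In the fetus it stood at 0.35, 0.71 and -0.39 log2 in ETP, at 1.03, 1.15 and 0.89 log2 in DN2 and at 0.04, 0.70 and -0.04 log2 in DN3. The fetal arrays thus stayed within a narrow range, and the adult arrays overlapped them in ETP and lay below them in DN2 and DN3. *Ifitm3* was higher in fetal cells by 3.40 ± 0.80 log2 in DN2 and 5.02 ± 0.80 log2 in DN3 (limma adjusted p = 0.0313 and 0.0023), and with adult DN3 replicate 1 alone by 6.05 log2 (adjusted p = 0.00128). *Ifitm2* was higher by 3.64 ± 0.89 log2 in DN2 (limma adjusted p = 0.0377), where the adult arrays stood at -0.78, -0.25 and -3.68 log2 and the fetal arrays at 2.37, 2.37 and 1.44 log2. In DN3 it differed by 2.69 ± 0.89 log2 without overlap of the arrays (limma adjusted p = 0.185). *Ifitm1* of the same family, which was not among the 36 genes, was higher in fetal DN3 by 7.69 ± 1.29 log2 (limma adjusted p = 0.00333). On the arrays of adult DN3 it stood at -9.82, -10.25 and -3.31 log2, so that replicate 3, with the *Cd44* value near DN2, was the least low of the 3 for *Ifitm1* as for *Ifitm3*. The DN2 calls of *Ifitm2* and *Ifitm3* were lost without adult DN2 replicate 3 (2.58 and 2.73 log2) or any one fetal DN2 array (3.48 to 3.95 and 3.33 to 3.46 log2), and that of *Ifitm3* also without adult DN2 replicate 1 (3.28 log2).

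*Samhd1*, which hydrolyses deoxynucleotides and thereby limits reverse transcription, was also called higher in fetal DN2. It stood at -1.59, -0.32 and -1.09 log2 in adult DN2 and at 0.32, 1.54 and 1.63 log2 in fetal DN2, a difference of 2.16 ± 0.41 log2 (limma adjusted p = 0.00879). Every fetal array was above every adult one. The difference was -0.21 log2 in ETP and 0.59 log2 in DN3. A probe set of *Samhd1* of similar span gave 1.03 log2 in DN2 and was called in DN3 instead, with 1.52 log2 (limma adjusted p = 0.0418), and 2 further ones were called at no stage. Averaged over its probe sets the difference in DN2 was 0.68 log2, under the fold limit, and without fetal DN2 replicate 2 it was 1.97 log2 and not called. The remaining effectors were not called between fetal and adult cells. *Mx1* was up on adult ETP replicate 1 at 1.96 log2, with 0.40 and 0.39 log2 on the other 2 arrays of the group. *Bst2*, tetherin, was at -3.73 log2 on adult ETP replicate 3 and between -0.76 and 0.72 log2 elsewhere. *Mx2* spanned under 0.5 log2, and *Isg20*, an RNA exonuclease, differed by -0.64, -0.94 and -0.31 log2.

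*Tap1* and *Tap2* encode the chains of the transporter that loads peptides on MHC class I, and they differed from each other. *Tap1* stood at 1.49, 0.24 and 1.10 log2 in adult and -0.67, -0.37 and -0.81 log2 in fetal ETP, and at 0.56, 1.48 and 0.82 log2 in adult and -0.76, -0.61 and -0.83 log2 in fetal DN2. The groups did not overlap, with differences of -1.56 ± 0.29 and -1.69 ± 0.29 log2 (limma adjusted p = 0.00353 and 0.00416). In DN3 *Tap1* differed by -0.93 log2 (limma adjusted p = 0.142). *Tap2* differed by 0.25, -0.58 and 0.22 log2 at the 3 stages. The other probe sets of *Tap1* spanned 0.11 to 0.64 log2, and averaged with them the differences were -0.33 log2 in ETP and -0.40 log2 in DN2 and not called.

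Of the other induced genes, *Rtp4*, which encodes a transporter protein of receptors that also inhibits viruses, was lower in the fetus at all 3 stages. It stood at 1.22, 1.47 and 1.68 log2 in adult ETP, at 0.65, 0.58 and 0.65 log2 in adult DN2 and at 0.24, -0.19 and 0.36 log2 in adult DN3. In the fetus it stood at -0.58, -0.73 and 0.19 log2 in ETP, at -1.67, -1.63 and -0.98 log2 in DN2 and at -1.33, -1.12 and -0.74 log2 in DN3. The adult arrays were above the fetal arrays at each stage. The differences were -1.83, -2.06 and -1.20 log2 (SE 0.25 each, limma adjusted p = 0.000492, 0.000347 and 0.0183). With adult DN3 replicate 1 alone the last was -1.30 log2 (adjusted p = 0.0713), and its call was lost also without adult DN3 replicate 1 (-1.15), adult DN3 replicate 3 (-1.09), fetal DN3 replicate 1 (-1.07) or fetal DN3 replicate 2 (-1.17). A second probe set of *Rtp4* differed by -0.69, 0.09 and -0.01 log2. *Parp14* and *Parp12* encode ADP-ribosyl transferases. *Parp14* stood at 1.33, 0.93 and 0.55 log2 in adult and -1.69, -1.57 and -0.23 log2 in fetal ETP, a difference of -2.10 ± 0.41 log2 without overlap (limma adjusted p = 0.00525). Its difference of -1.43 log2 in DN2 was called with the replicate number as a block (limma adjusted p = 0.0497) and not by limma without it (0.0779). Deviations of arrays with the same number were correlated between these groups (r = 0.202 to 0.285), and no label names a pairing. *Parp12* was lower in fetal DN2, with a difference of -1.43 ± 0.28 log2 (limma adjusted p = 0.0115), a call that was lost without fetal DN2 replicate 2 (-1.37). *Ifi35*, *Lgals3bp* and *Cxcl10* were not called, and *Cxcl10*, a chemokine, was up on adult ETP replicate 1 alone, at 0.93 log2.

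**Figure D4:**
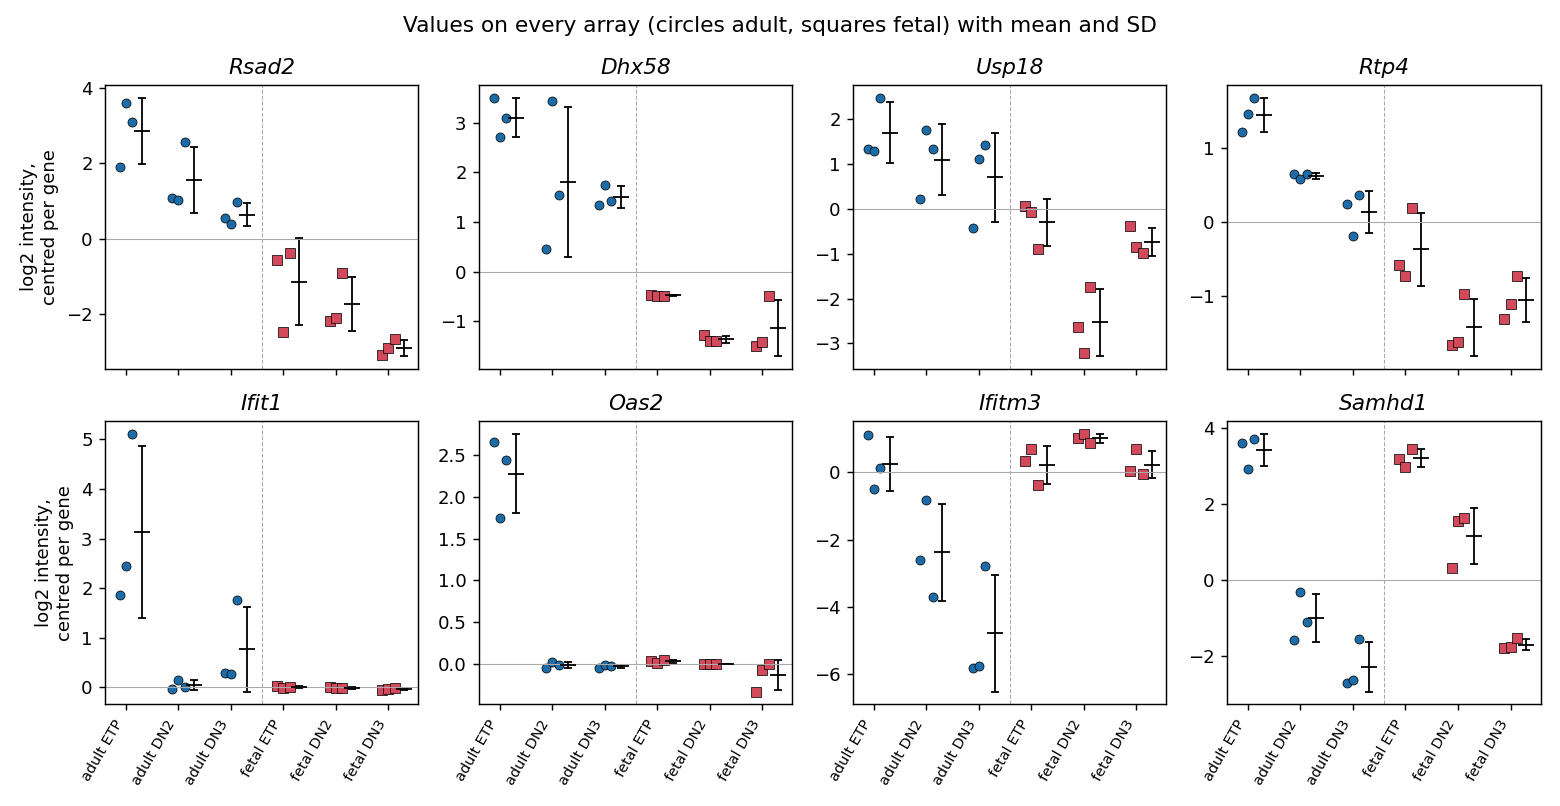
Log2 intensity centred per gene (vertical axis) of 8 genes on every array, with adult arrays as blue circles and fetal arrays as red squares, and the mean and SD of the 3 arrays beside them. *Rsad2* and *Dhx58* separate adult from fetal arrays at each stage, *Oas2* is up on the adult ETP arrays alone, *Samhd1* falls with stage at both ages and *Ifitm3* in the adult.

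In the adult thymus more of the genes fell than rose from ETP to DN2 and from ETP to DN3. From adult ETP to adult DN2, 3 of the 36 genes fell and 0 rose (3.61% and 3.86% of all genes). From ETP to DN3, 10 fell and 2 rose (6.09% and 6.80% of all genes). Of the 7197 genes that spanned at least 1 log2, 447 fell and 478 rose to DN2 (6.21% and 6.64%). To DN3, 755 of these 7197 genes fell and 843 rose. The 3 genes that fell to DN2 were 8.33% of the list, close to the share among these varying genes. From adult DN2 to DN3 limma called 0 genes in either direction (0.323% and 0.767% of all genes), with 5 at an unadjusted p under 0.05. The median change of the 36 genes was -0.44 log2 from ETP to DN2 and -0.62 log2 from ETP to DN3, against 0.01 and 0.00 log2 over all genes. The comparisons from adult ETP share the adult ETP arrays with the comparison of fetal and adult ETP. The largest falls to DN3 were those of *Samhd1* (-5.69 ± 0.41 log2), *Ifitm3* (-5.04 ± 0.80), *Oasl2* (-3.45 ± 0.73) and *Cmpk2* (-3.27 ± 0.70). *Ifit1* (-2.38), *Oas2* (-2.31), *Rsad2* (-2.23), *Rtp4* (-1.32), *Irf7* (-1.03) and *Mx1* (-0.99) also fell, and *Tap2* (1.39) and *Zbp1* (1.24) rose. The changes to DN2 were -4.41 log2 for *Samhd1*, -3.11 log2 for *Ifit1* and -2.30 log2 for *Oas2*. With adult DN3 replicate 1 alone 5 genes fell and 0 rose from ETP to DN3. The number called was 7 without adult DN3 replicate 1 and 6 without adult DN3 replicate 2, and from ETP to DN2 it was 5 without adult ETP replicate 1, adult ETP replicate 2 or adult DN2 replicate 3 and 7 without adult DN2 replicate 2. The rise of *Tap2* was lost without adult ETP replicate 2 or 3 or any adult DN3 array, that of *Zbp1* without any adult ETP array or adult DN3 replicate 2, and the fall of *Mx1* without adult ETP replicate 1 (-0.47 log2) or any adult DN3 array. The fall of *Ifit1* was lost without adult DN3 replicate 1 or 2, that of *Rsad2* without adult ETP replicate 2 or 3 or adult DN3 replicate 1 or 2, and that of *Irf7* without adult ETP replicate 1 or 3 or adult DN3 replicate 1 or 2.

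In the fetus, *Samhd1* was the gene called at every step. From fetal ETP to DN2 and from fetal DN2 to DN3, it was the one gene that fell (0.654% and 0.992% of all genes) and 0 rose (0.573% and 1.97%). From fetal ETP to DN3, 2 fell and 1 rose (3.13% and 3.25% of all genes). *Samhd1* stood at 3.19, 2.97 and 3.44 log2 in fetal ETP, at 0.32, 1.54 and 1.63 log2 in DN2 and at -1.80, -1.76 and -1.53 log2 in DN3. The 3 fetal groups did not overlap, and the change from ETP to DN3 was -4.89 ± 0.41 log2 (limma adjusted p = 4.62e-06). *Cmpk2* stood at 0.98, 0.39 and 0.98 log2 in fetal ETP and at -3.03, -2.68 and -2.10 log2 in fetal DN3, a fall of -3.39 ± 0.70 log2 (limma adjusted p = 0.00867), and *Zbp1* rose by 1.26 ± 0.33 log2 (limma adjusted p = 0.0383). The fall of *Samhd1* from fetal ETP to DN2 was lost without any one fetal ETP array or fetal DN2 replicate 1, and the rise of *Zbp1* without any one array of the 2 groups. *Rtp4* changed by -1.05 log2 from fetal ETP to DN2 and was not called (limma adjusted p = 0.0867). It was called with the replicate number as a block (0.00886), where fetal arrays of one number deviated together, with array weights (0.0123) and without fetal DN2 replicate 3 (-1.28 log2, 0.0463).

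A change of the fetal against adult difference from stage to stage was tested as an interaction. Between ETP and DN2, 1 of the 36 genes was called (0.984% of all genes), between DN2 and DN3 limma called 0 (0.71%), with 4 at an unadjusted p under 0.05, and between ETP and DN3 it called 2 (3.03%). *Oas2* had a difference that moved by 2.27 ± 0.23 log2 towards the fetus from ETP to DN2 and by 2.15 ± 0.23 log2 from ETP to DN3 (limma adjusted p = 0.000182 and 0.000138). With *Oas2* between -0.33 and 0.04 log2 on every array outside adult ETP, this restates its elevation there and does not measure a difference in DN2 or DN3. The SE is pooled over the 6 groups and rests largely on the flat ones. *Ifitm3* moved by 5.05 ± 1.13 log2 from ETP to DN3 (limma adjusted p = 0.0325). This call of *Ifitm3* was lost with the replicate number as a block (0.0536), for groups whose deviations were not all correlated by number. It was also lost without any single array of the 12 except adult ETP replicate 2 and adult DN3 replicate 3 (adjusted p = 0.054 to 0.0856, 4.53 to 5.29 log2). For the other genes a difference called at one stage and not at another was not shown to change between stages.

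The adult and fetal ETP differed also in genes listed as markers of other cell types and of the T lineage itself. Over all genes 4.06% were called lower and 6.16% higher in fetal ETP, 1.94% and 2.11% in fetal DN2, and 1.33% and 1.95% in fetal DN3. Of 10 genes of dendritic cells and MHC class II, 4 were lower in fetal ETP, among them *H2-Aa* (-7.56 log2), *H2-Eb1* (-6.42) and *Cd74* (-5.03), and the mean of the 10 lay between 2.84 and 3.43 log2 on the adult ETP arrays and between 0.67 and 0.77 log2 on the fetal ones. Of 13 macrophage and monocyte genes 3 were lower, *Mpeg1* (-7.03), *Lyz2* (-2.81) and *Csf1r* (-1.63), with means of 1.82 to 2.00 log2 in adult and 1.11 to 1.21 log2 in fetal ETP. Of 11 genes of plasmacytoid dendritic cells 4 were lower, one of which, *Irf7*, is also among the 36 genes, as is *Bst2*. Of 9 neutrophil genes 2 were lower, *Ctsg* (-7.13) and *Elane* (-1.94). Of 9 natural killer and innate lymphoid genes 2 were higher in fetal ETP, *Gzma* (9.15) and *Gzmb* (5.76), and of 11 genes of the T lineage 4 were higher, *Cd3g* (7.37), *Bcl11b* (3.75), *Thy1* (2.95) and *Gata3* (1.52). Of 11 thymic epithelial and stromal genes *Epcam* was higher (2.01). B lineage and erythroid genes were not called in either direction (0 of 8 and 0 of 9). The part of these differences in the values of the interferon response genes in ETP was not tested. In DN2 and DN3 none of the dendritic and MHC class II genes was called between fetal and adult cells by limma (0 of 10 each). Of the macrophage genes, *Lyz2* was called there (-3.97 and -3.29 log2), and the mean of the 13 was at most 0.35 log2 in these groups. Of the plasmacytoid list, *Ly6d* was lower in fetal DN2 and DN3 (-4.53 and -5.78 log2), and in DN3 *Tcf4* was lower (-1.88) and *Spib* higher (3.12). The mean of this list was highest in DN3, at 1.01 to 1.37 log2 in the adult, against at most 0.70 log2 in adult ETP. The study places *Spib* among the genes that rise from ETP to DN3. Whether these calls in DN3 come from another cell type was not tested. *Ctsg* was lower in fetal DN2 (-2.42 log2). Of the natural killer and innate lymphoid genes, *Gzmb* was higher in fetal DN2 and DN3 (6.06 and 2.87 log2), and *Gzma* (2.94) and *Zbtb16* (1.56) were higher in DN2. The part of these differences in the interferon response genes was not tested either.

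Of 17 receptors, kinases and STATs of the interferon pathways, 2 were lower and 1 higher in fetal ETP, 2 were lower and 0 higher in fetal DN2, and 0 were called in DN3. The shares over all genes were 4.06% lower and 6.16% higher in ETP, 1.94% and 2.11% in DN2, and 1.33% and 1.95% in DN3. *Ifnar2*, a chain of the type I receptor, was lower in fetal DN2, with a difference of -1.45 ± 0.33 log2 (limma adjusted p = 0.0268), as was *Ifngr1* of the interferon gamma receptor with -1.45 ± 0.20 log2 (limma adjusted p = 0.00101). *Jak1*, the kinase that the type I and interferon gamma receptors share, was lower in fetal ETP (-1.64 log2). It stood at 0.37, 2.51 and 0.97 log2 in adult and at 0.20, -0.57 and -0.71 log2 in fetal ETP, so that adult replicate 2 stood apart. *Cish*, an inhibitor of cytokine signalling, was also lower in fetal ETP (-1.59 log2), and *Stat3* was higher by 1.29 log2. *Irf8* was the one of 6 further interferon regulatory factors called, with -4.53 ± 0.89 log2 in ETP (limma adjusted p = 0.00529). Of 12 further sensors and adaptors, *Tlr7*, the endosomal receptor for RNA, and *Unc93b1*, which carries it to the endosome, were lower in fetal ETP (-2.10 and -1.73 log2). The array measured 9 genes for interferons themselves. Of these 7 spanned less than 1 log2 over the 18 arrays and limma called 0 in any of the comparisons above. *Ifng*, which encodes interferon gamma, stood at 3.34 log2 on adult ETP replicate 1 and between -0.11 and 0.07 log2 on the other 17 arrays. Adult ETP replicate 1 was also the array with the highest median of the 36 genes. *Ifnb1*, which encodes interferon beta, stood at 1.01 log2 on adult DN2 replicate 1, where the median of the 36 genes was -0.04 log2. On the other 17 arrays *Ifnb1* lay between -0.07 and 0.05 log2. A link of either gene with the 36 genes was not tested.

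A further 47 interferon-stimulated genes outside the list of 36 gave 12 lower and 1 higher in fetal ETP, 6 and 1 in DN2, and 4 and 2 in DN3. Over all genes 4.06% were called lower and 6.16% higher in ETP, 1.94% and 2.11% in DN2, and 1.33% and 1.95% in DN3. Their median differences were -0.01, -0.19 and -0.04 log2. *Casp1*, which activates interleukin-1, was lower at each stage, with differences of -4.44, -5.71 and -5.19 log2 (limma adjusted p = 7.17e-06, 1.33e-06 and 1.52e-06). It stood between 0.58 and 3.85 log2 on the adult arrays and between -3.97 and -0.58 log2 on the fetal arrays. *Slfn8*, of a family of RNA-binding antiviral proteins, differed by -4.01, -2.87 and -1.86 log2 (limma adjusted p = 3.15e-05, 0.000876 and 0.0192), and *Sp100*, a component of nuclear bodies, by -2.61, -1.37 and -1.35 log2. *Slfn2* was higher in fetal ETP (2.43 log2), *Tnfsf10* in fetal DN2 (1.67) and *Epsti1* in fetal DN3 (2.55). From adult ETP to DN3, 11 of these 47 genes fell and 3 rose (6.09% and 6.80% of all genes).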

How the data were processed

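RNA of sorted thymocyte progenitors was amplified and hybridised to Affymetrix mouse genome arrays. The authors made the deposited log2 intensities with GCRMA (named in the submitters' processing notes without a version), and had already subtracted from every probe set its own median across the 18 arrays, so that no filter on level could be applied. Groups were taken from the sample titles, and 0 columns were left unmapped. GCRMA shrinks weak signals to a common floor, so that a probe set near background shows almost no spread.

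The model had 1 mean per group and no trend, used all 18 arrays and was fitted with limma 3.58.1 (R 4.3.3). Benjamini-Hochberg adjustment ran over 22626 probe sets. A call required an adjusted p under 0.05 and a difference of at least 1.8-fold. That limit is the fold limit of the study's methods. A gene with several probe sets (10 of the 36) was represented by one, avoiding cross-hybridising ones and then taking that of largest SD. Probe sets were named from the platform annotation (20380 with 1 gene, 691 with several, 1555 with none). The fit was tested on simulated data. The members and gene lists were chosen with earlier results of these data known, so that they are a description and no independent support. Every gene of the list could be named, genes with large called differences were given on every array, and up to 4 called genes of each other list were named. *Stat3*, *Slfn2*, *Tnfsf10*, *Epsti1*, *Ifng* and *Ifnb1* were added after their values were seen. The promoters shown were chosen after the values were seen.

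Deviations of arrays with the same number from their group means were correlated in all 3 pairs, over the limit of r = 0.1, among the fetal groups (0.312 to 0.597), and between adult DN2 and adult DN3 and adult DN2 and each fetal group, and not in other pairs of groups. The alternatives were the replicate number as a block, a fold limit of 2, no fold limit, array centring, array weights, a robust prior, averaging the probe sets of each gene, limma on the compared groups alone, a one-way analysis of variance run separately on the groups of each comparison, which is the kind of test that the study's methods name and not its step across all populations, and each array left out. The number of arrays limits the precision. Python 3.11.15 with pandas 2.3.3 and matplotlib 3.10.9 was used for counts and plots.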

Additional observations from a re-analysis of the deposited data

Results flagged for a closer look

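The difference between fetal and adult cells changed with stage, by the interaction term of limma, in 3 tests. For *Oas2* it moved by 2.27 log2 between ETP and DN2 and by 2.15 log2 between ETP and DN3, from 2.25 log2 lower in fetal ETP to 0.01 and -0.10 log2. Outside adult ETP every array lay between -0.33 and 0.04 log2 for *Oas2*, so that the 2 tests restate its elevation in adult ETP. For *Ifitm3* it moved by 5.05 log2 between ETP and DN3, from -0.03 log2 in ETP to 5.02 log2 in DN3. This call was lost with the replicate block (adjusted p = 0.0536) and without 10 of the 12 single arrays.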

How the results depend on the processing

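Counts below are of the 36 genes. With adult DN3 replicate 1 alone, where the other groups supply its spread, 0 genes were called lower in fetal DN3 and 1 higher, 5 were called from adult ETP to DN3, 1 from adult DN2 to DN3 and 4 in the interaction of ETP and DN3. One of these was *Cmpk2*, whose interaction turned from -0.12 to 2.09 log2 (adjusted p = 0.0465), where adult DN3 replicate 1 stood at -4.02 log2 and the other two at -1.39 and -0.03 log2. With array weights, under which adult DN2 replicate 1 had 0.142 and fetal DN3 replicate 2 had 8.87, 9 were lower and 2 higher in fetal DN3 and 1 was higher in fetal ETP, while 3, 7 and 6 were called from fetal ETP to DN2, DN2 to DN3 and ETP to DN3 and 1 in the interaction of DN2 and DN3. With limma on the compared groups alone, where fewer arrays estimate the spread, 5, 1 and 2 were lower in fetal ETP, DN2 and DN3 and 0 higher in DN2 and DN3, with 4 from adult ETP to DN3 and 4 from fetal DN2 to DN3. The one-way analysis of variance with adjustment gave 2, 0 and 1 lower in fetal ETP, DN2 and DN3, 0 higher in DN2 and DN3, 0 from adult ETP to DN2, 1 from adult ETP to DN3, 0 from fetal DN2 to DN3 and 1 in the interaction of ETP and DN3. Without adjustment it gave 2 higher in fetal DN3, 5 from adult ETP to DN2, 7 from fetal ETP to DN2, 7 from fetal DN2 to DN3 and 5, 3 and 4 in the interactions of ETP and DN2, DN2 and DN3, and ETP and DN3. Averaging the probe sets of each gene gave 5 from adult ETP to DN2, 1 from adult DN2 to DN3 and 2 in the interaction of ETP and DN2. The replicate block gave 2 from fetal ETP to DN2 and 1 in the interaction of ETP and DN3, gained *Parp14* in fetal DN2 and changed no other call. Except where an alternative's own construction shows it, the cause was not tested.

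Leaving out 1 array at a time gave 7 to 13 genes lower and 0 to 1 higher in fetal ETP, where 7 was without fetal ETP replicate 2, 7 to 10 lower and 0 to 3 higher in fetal DN2, and 1 to 4 lower and 1 higher in fetal DN3. It gave 3 to 7 from adult ETP to DN2, 0 to 2 from adult DN2 to DN3, 6 to 10 from adult ETP to DN3, 0 to 2 from fetal ETP to DN2, 1 from fetal DN2 to DN3 and 2 to 3 from fetal ETP to DN3. The interactions gave 1 to 2 for ETP and DN2, 0 to 1 for DN2 and DN3 and 1 to 3 for ETP and DN3. Over all comparisons 51 differences of single genes were called, and 49 of them were called with a fold limit of 2, 51 without one, 50 with array centring, 50 with a robust prior, 48 with array weights, 45 after averaging probe sets, 20 with limma on the compared groups alone and 8 after the adjusted analysis of variance. None of these changed sign under them. The centred values hold no signal over background, so that a gene near background on all arrays could not be told from one that did not vary.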
